A study of Arabidopsis thaliana with 16 samples.

Results

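The shoots compared here came from wild-type Arabidopsis thaliana seedlings held at a uniform 32 °C or at a uniform 22 °C, and the comparison covers every measured gene rather than one pathway. All seedlings grew for 4 days at 22 °C on half-strength Murashige and Skoog medium and then spent 6 further days under 1 of 3 regimes, so they were 10 days old. Of the 16 columns of normalised counts, covering roots and shoots, 5 hold these shoots: 3 libraries at 32 °C and 2 at 22 °C. Beside them stand shoots held at 32 °C while the root zone had a decreasing temperature gradient (the gradient shoots), and roots of the 3 regimes. Replicates 2 and 3 of the gradient shoots were identical at every locus, as were replicates 1 and 2 of the 22 °C roots, and each such pair was counted as 1 library, which leaves 14 libraries. The labels name no ecotype, transgene or mutation, and whole shoots of many cell types were used, so fewer cells of a type and less RNA per cell cannot be told apart. Nothing in the labels says that replicates came from separate cultures; the p-values therefore measure the spread between these libraries.

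Of 32833 loci in the table, 21877 reached a value of 10 in at least 2 of the shoot columns and were tested with limma on log2(value + 1). A locus was called when its p-value, adjusted by the Benjamini-Hochberg method over all tested loci, was below 0.05; fold changes are on this log2 scale, 32 °C over 22 °C, with the standard error (SE) after the ± sign.

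In Arabidopsis, 22 °C is an ordinary growth temperature and 32 °C is strong, sustained warmth. Warmth is known to act in shoots through light receptors, growth hormones and the clock, while heat damages proteins and membranes and calls up chaperones in the cytosol, the organelles and the endoplasmic reticulum. Leaves also adjust how they store sugar, assimilate nitrogen and sulfur, and make defence compounds.

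Most of the transcriptome differed between the temperatures. Of the tested loci 14993 were called (68.5%): 12141 were higher at 32 °C than at 22 °C (55.5%) and 2852 were lower (13.0%), and the median log2 fold change was 0.49. Every 32 °C library lay above both 22 °C libraries for 61.7% of the tested loci and below both for 16.7%, so a gap between the groups was common. That shift depends on how the libraries are scaled: the 10 most abundant loci took 4.87% to 5.54% of the total in the 32 °C shoots and 9.23% to 9.64% in the 22 °C shoots, and after trimmed-mean (TMM) scaling the median was 0.04, with 7095 loci higher (32.4%) and 6627 lower (30.3%). Under that scaling the log2 values of 152 named loci shifted by -0.46 to -0.22, so each is best read against the median of 0.49. For gene groups, counts under both scalings are given.

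The leaf identity of the samples was plain: 17 tested leaf cell marker genes summed to between 616607 and 657930 normalised counts in the 32 °C shoots and to 820707 and 850250 in the 22 °C shoots, against 5755 to 7701 in the uniformly treated roots. The heat treatment was plain as well, since 28 of 32 tested heat shock proteins and factors rose and 3 fell (median log2 fold change 2.62; 25 and 4 after TMM scaling). Of the leaf markers 6 rose and 4 fell (1 and 7 after TMM scaling). Of 15 tested root markers 7 rose and 1 fell (5 and 2 after TMM scaling). PRP3 and EXPA7, a cell wall protein and an expansin of root hairs, had 618, 268 and 575 at 32 °C, against 80 and 85 at 22 °C for PRP3, and 103, 48 and 77 at 32 °C, against 8 and 13 at 22 °C for EXPA7, while CASP1, of the root endodermis, had 555, 369 and 370 at 32 °C, against 503 and 330 at 22 °C and was not called. The part that root-type transcripts had in the results below was not tested.

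**Figure D1:**
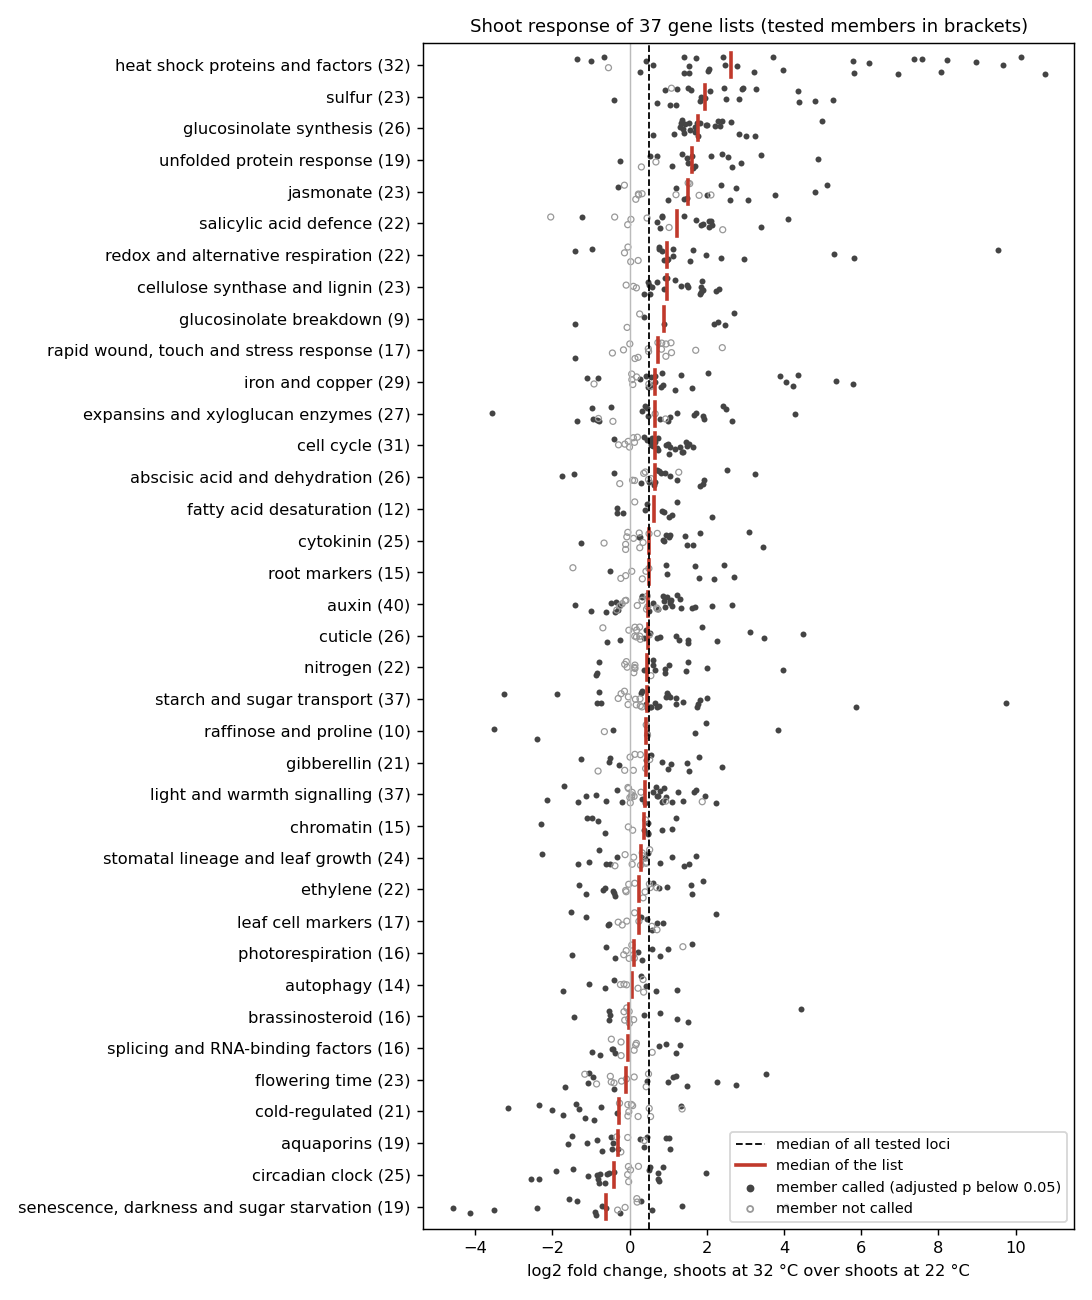
Log2 fold changes (32 °C shoots over 22 °C shoots, x axis) of the tested members of 37 gene lists, ordered by list median. Filled points are called loci, open points are not; red bars are list medians and the dashed line is the median of all tested loci, 0.49. Heat shock, sulfur, glucosinolate synthesis and unfolded protein response genes lie mostly to the right of the line, and starvation, clock, aquaporin and cold-regulated genes mostly to the left.

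Of the gene groups examined, the highest median change was in transcripts of the mitochondrial genome, which encodes subunits of the respiratory chain, ribosomal proteins and RNAs. All 79 tested mitochondrial loci rose, against 55.5% of all loci, by log2 fold changes of 1.79 to 7.64 with a median of 4.00, and 78 were still called higher after TMM scaling. Locus ATMG00160 had 9421, 6626 and 7607 at 32 °C, against 50 and 29 at 22 °C (log2 fold change 7.64 ± 0.22, adjusted p = 6e-07), and ATMG00640 had 5955, 4102 and 5147 at 32 °C, against 41 and 30 at 22 °C (log2 fold change 7.12 ± 0.18, adjusted p = 3.8e-07). Every 32 °C library stood far above either 22 °C library for both loci. Together the mitochondrial loci took 0.639%, 0.518% and 0.578% of the total in the 32 °C shoots, against 0.0263% and 0.0219% in the 22 °C shoots. The gradient shoots held 0.465% and 0.488%. Roots held 0.753%, 1.07% and 0.591% at 32 °C and 0.453% in the 1 distinct library at 22 °C. The 22 °C shoots thus had the lowest shares of these libraries, far below the 22 °C roots, and the cause was not tested. Plastid loci did not move as a block: of 105 tested, 47 rose and 12 fell (25 and 16 after TMM scaling), and without 22 °C replicate 2 only 19 rose.

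Chromosome 2 carries a long copy of mitochondrial DNA, so reads cannot always be assigned to the mitochondrial or the nuclear genome. Of 54 tested loci coded AT2G07600 to AT2G07799, 53 rose, before and after TMM scaling, with a median log2 fold change of 3.84; these and the mitochondrial loci are uncertain as separate measurements. The libraries were made from oligo(dT)-selected RNA, so these values count mitochondrial transcripts that were retained in that selection.

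Pentatricopeptide repeat proteins, encoded in the nucleus, edit, splice and stabilise organelle RNAs, and of 240 tested loci whose RefSeq product carries that name 224 rose and 3 fell (190 and 11 after TMM scaling; median log2 fold change 1.41). AOX1A, the alternative oxidase that bypasses part of the respiratory chain, had normalised counts of 2837, 2699 and 3080 at 32 °C, against 654 and 476 at 22 °C (log2 fold change 2.36 ± 0.13, adjusted p = 5.4e-06). NDB4, an alternative NAD(P)H dehydrogenase of the same membrane, had 280, 297 and 243 at 32 °C, against 5 and 3 at 22 °C (log2 fold change 5.80 ± 0.38, adjusted p = 9.9e-06). The groups did not overlap for either gene. AT2G21640, annotated as a marker of the oxidative stress response, had 1338, 1595 and 1236 at 32 °C, against 39 and 30 at 22 °C (log2 fold change 5.30 ± 0.23, adjusted p = 2.1e-06). HSP23.6, a small heat shock protein of the mitochondrion, had 1529, 1580 and 1186 at 32 °C, against 0 and 2 at 22 °C (adjusted p = 1.8e-06). APX2, a cytosolic ascorbate peroxidase that removes hydrogen peroxide, had 1134, 1237 and 843 at 32 °C, against 0 and 1 at 22 °C (adjusted p = 7.2e-07). In the list of redox and alternative respiration genes as a whole, 16 of 22 rose and 2 fell (15 and 5 after TMM scaling).

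**Figure D2:**
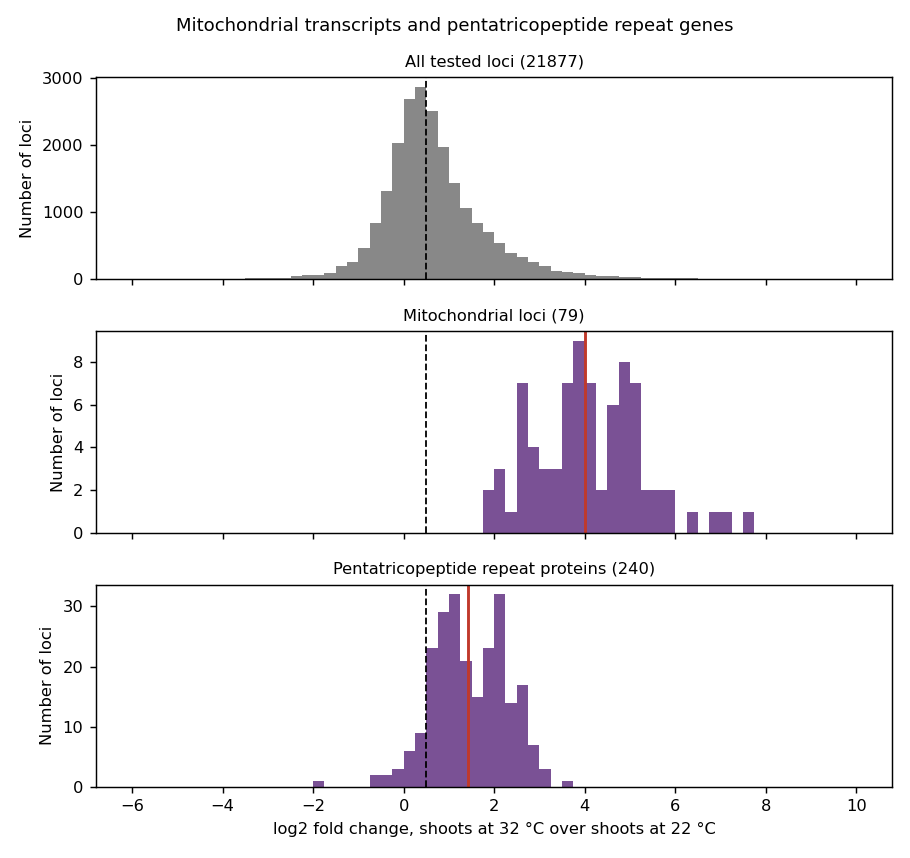
Number of loci (y axis) by log2 fold change, 32 °C shoots over 22 °C shoots (x axis), for all 21877 tested loci, the 79 mitochondrial loci and 240 pentatricopeptide repeat protein loci. The dashed line is the median of all loci (0.49) and the red lines are the group medians (4.00 and 1.41); no mitochondrial locus lies below the dashed line.

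The unfolded protein response, by which the endoplasmic reticulum adds chaperones when its folding capacity is short, rose nearly throughout. Of 19 tested genes 16 rose and 1 fell (14 and 1 after TMM scaling), with a median log2 fold change of 1.62. BIP1, the main Hsp70 chaperone of this compartment, had 14965, 14530 and 14750 at 32 °C, against 2331 and 2682 at 22 °C (log2 fold change 2.56 ± 0.08, adjusted p = 6e-07). Its co-chaperone gene ERDJ3B had 5492, 5020 and 5674 at 32 °C, against 777 and 688 at 22 °C (log2 fold change 2.88 ± 0.09, adjusted p = 6e-07). Replicates differed little beside the gap between temperatures. CNX1, the lectin chaperone calnexin, was 4.27-fold higher at 32 °C, and TIN1, a tunicamycin-induced gene, had 728, 630 and 537 at 32 °C, against 18 and 23 at 22 °C (log2 fold change 4.88 ± 0.17, adjusted p = 1e-06).

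Sulfur assimilation genes rose almost without exception. Plants take up sulfate, store it in the vacuole, and reduce it through adenosine phosphosulfate (APS) to make cysteine, glutathione and sulfur-rich defence compounds. Of 23 tested genes 21 rose and 1 fell, and TMM scaling left 20 higher; the median log2 fold change was 1.96. APR1 and APR3 encode APS reductase, the regulated step of the pathway. APR3 had normalised counts of 5118, 4752 and 4979 at 32 °C, against 724 and 660 at 22 °C (log2 fold change 2.84 ± 0.09, adjusted p = 6.5e-07), and APR1 had 3731, 4089 and 4246 at 32 °C, against 467 and 374 at 22 °C (log2 fold change 3.26 ± 0.14, adjusted p = 2.1e-06). SULTR4;1 and SULTR4;2 release sulfate from the vacuole, and they were 2.99-fold and 7.48-fold higher at 32 °C, with adjusted p of 2.1e-06 and 1.5e-06. SHM7, a serine hydroxymethyltransferase, had 3445, 3609 and 3531 at 32 °C, against 849 and 967 at 22 °C (log2 fold change 1.96 ± 0.08, adjusted p = 1.8e-06).

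The largest change of this list was in a gene that marks low sulfur supply. SDI1, named for its induction by sulfur deficiency, had 1077, 1234 and 889 at 32 °C, against 43 and 16 at 22 °C (log2 fold change 5.27 ± 0.36, adjusted p = 1.3e-05). LSU1, a response to low sulfur gene, had 938, 973 and 943 at 32 °C, against 57 and 35 at 22 °C (log2 fold change 4.38 ± 0.22, adjusted p = 3.9e-06). The 32 °C libraries lay close together and far above both 22 °C libraries for LSU1; for SDI1 the 22 °C libraries themselves differed, and the log2 fold change was 5.96 without 22 °C replicate 1 and 4.59 without replicate 2. In the gradient shoots both genes stood between the uniform regimes, at 196 and 253 for SDI1 and 225 and 319 for LSU1. These values are set side by side, since both shoot regimes at 32 °C share the 22 °C libraries.

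Glucosinolate synthesis, which draws on reduced sulfur to make the main defence compounds of Arabidopsis and its relatives, rose in every tested gene. All 26 were called higher at 32 °C, 25 of them also after TMM scaling, with log2 fold changes of 0.60 to 4.99 and a median of 1.76. FMO GS-OX2, which oxidises the side chain of methionine-derived glucosinolates, had 3140, 2864 and 3282 at 32 °C, against 126 and 74 at 22 °C (log2 fold change 4.99 ± 0.21, adjusted p = 1.7e-06). CYP79F1, the entry enzyme for those made from methionine, had 3107, 4802 and 3737 at 32 °C, against 539 and 532 at 22 °C (log2 fold change 2.83 ± 0.20, adjusted p = 1.3e-05). SOT17, a sulfotransferase of the last step of the core structure, had 1660, 2126 and 2072 at 32 °C, against 356 and 280 at 22 °C (log2 fold change 2.62 ± 0.15, adjusted p = 5.4e-06). For none of these 3 genes did the temperatures overlap. MYB28, a transcription factor of the methionine-derived branch, rose less (1.30 ± 0.17, adjusted p = 0.00029).

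Genes that act when glucosinolates are broken down did not all move one way. Of 9 tested, 6 rose and 1 fell (5 and 2 after TMM scaling). The specifier proteins NSP1 and ESP, which steer the products towards nitriles or epithionitriles, had 44146, 32424 and 48640 at 32 °C, against 9347 and 7630 at 22 °C for NSP1 and 1517, 1353 and 2007 at 32 °C, against 349 and 242 at 22 °C for ESP. PYK10, a beta-glucosidase of endoplasmic reticulum bodies that is abundant in roots, had 296137, 201170 and 313051 at 32 °C, against 61748 and 55170 at 22 °C (log2 fold change 2.18 ± 0.20, adjusted p = 5.4e-05). It also accounts for most of the summed root markers in the shoots, 202669 to 315017 at 32 °C and 56302 to 63323 at 22 °C. BGLU18, a related beta-glucosidase, had 10726, 20507 and 19619 at 32 °C, against 2839 and 2219 at 22 °C (log2 fold change 2.697 ± 0.29, adjusted p = 0.00011). TGG2, one of the classical myrosinases of the leaf, was lower, with 5013, 11641 and 8039 at 32 °C, against 17423 and 24550 at 22 °C (log2 fold change -1.41 ± 0.40, adjusted p = 0.014). That call rested on few libraries: without 22 °C replicate 2 its log2 fold change was -1.16 with an adjusted p of 0.098.

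**Figure D3:**
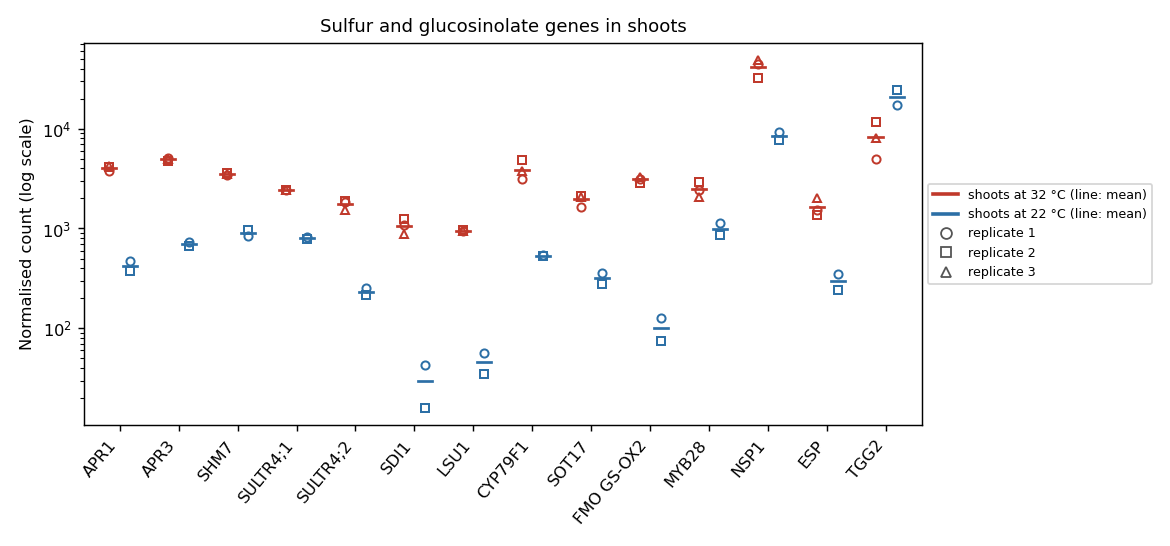
Normalised counts (log scale, y axis) of 14 sulfur and glucosinolate genes in each shoot library, 32 °C in red on the left of each gene and 22 °C in blue on the right. Symbols are replicates and short lines are means; 13 genes lie higher at 32 °C with no overlap, and TGG2 lies lower.

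Several jasmonate genes rose, among them LOX2 and AOC2 of the synthesis pathway and the storage protein gene VSP2, while no rapid wound or touch gene was called higher with both 22 °C libraries in the fit. Jasmonate is a lipid-derived hormone made in plastids and peroxisomes after wounding and during insect attack. Of 23 tested jasmonate genes 12 rose and 1 fell, so the share that rose (52.2%) was below that of all tested loci (55.5%). After TMM scaling 10 rose and 3 fell. The share that rose (43.5%) was then above that of all tested loci (32.4%), so this comparison depends on the scaling. The count turned on the 22 °C libraries: 18 rose without 22 °C replicate 1 (median log2 fold change 2.59) and 9 without replicate 2 (median 0.37), against a median of 1.52 with both. LOX2, the plastid lipoxygenase that starts the pathway in leaves, had 16112, 19061 and 27891 at 32 °C, against 1890 and 1205 at 22 °C (log2 fold change 3.76 ± 0.25, adjusted p = 1.1e-05). VSP2, a vegetative storage protein of leaves, had 6483, 10244 and 17331 at 32 °C, against 330 and 275 at 22 °C (log2 fold change 5.12 ± 0.38, adjusted p = 1.7e-05). Replicate 3 was the highest 32 °C library for both genes, and even the lowest 32 °C library stood far above the 22 °C libraries. AOC2, an allene oxide cyclase of the pathway, was 6.69-fold higher, and JMT, which methylates the hormone, had 26, 38 and 34 at 32 °C, against 5 and 4 at 22 °C (log2 fold change 2.603 ± 0.31, adjusted p = 0.00017).

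One 22 °C library stood apart for the fast-responding genes. Of 17 tested wound, touch and stress genes all 17 were higher in 22 °C replicate 1 than in 22 °C replicate 2, by a median ratio of 3.07, against a median ratio of 1.01 over all tested loci. None of these genes was called higher at 32 °C and 1 was called lower; without 22 °C replicate 1, 13 were called higher. ZAT10, a zinc finger repressor, had 746, 781 and 1881 at 32 °C, against 2367 and 371 at 22 °C (log2 fold change 0.14 ± 0.73), and leaving out 22 °C replicate 1 or replicate 2 gave 1.47 and -1.20. WRKY40, a defence transcription factor, had 547, 689 and 1385 at 32 °C, against 1485 and 223 at 22 °C, and its log2 fold change of 0.48 ± 0.78 became 1.85 without 22 °C replicate 1. The temperatures overlapped for both genes. JAZ1, a repressor of jasmonate signalling that is itself induced by the hormone, had 1697, 1941 and 3382 at 32 °C, against 2209 and 427 at 22 °C; it was not called with both 22 °C libraries (adjusted p = 0.11) and was called without replicate 1 (2.38, adjusted p = 0.0015). XTH22, a touch-induced wall enzyme, was the gene called lower, with 2362, 2297 and 5189 at 32 °C, against 8997 and 7342 at 22 °C (log2 fold change -1.42 ± 0.44, adjusted p = 0.02), and it lost that call when any 1 of 4 libraries was left out (adjusted p 0.057 to 0.098). TCH3, a calmodulin-like touch gene, had 7624, 7672 and 12087 at 32 °C, against 13794 and 10693 at 22 °C and was not called as deposited; it was called lower without 32 °C replicate 3 (-0.67, adjusted p = 0.024) and after TMM scaling (-0.90, adjusted p = 0.017). Of the 23 jasmonate genes 20 were likewise higher in 22 °C replicate 1 than in replicate 2, by a median ratio of 1.904. LOX2, VSP2, AOC2 and JMT did not overlap between temperatures and were called whichever library was left out.

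**Figure D4:**
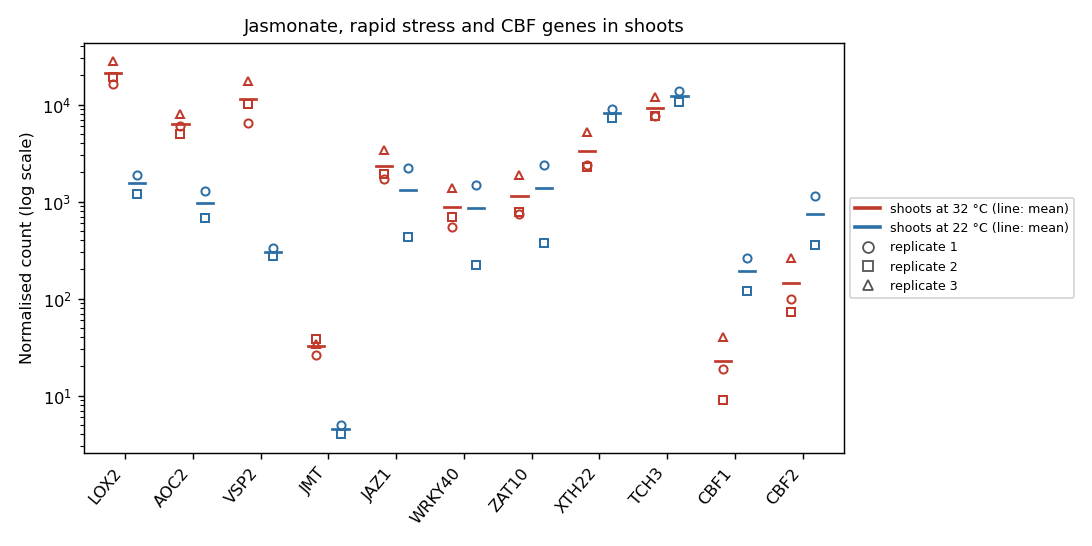
Normalised counts (log scale, y axis) of jasmonate, rapid stress and CBF genes in each shoot library, 32 °C in red on the left of each gene and 22 °C in blue on the right. Symbols are replicates and short lines are means; LOX2, AOC2, VSP2 and JMT separate the temperatures, whereas replicate 1 at 22 °C lies above replicate 2 for JAZ1, WRKY40 and ZAT10 by several fold.

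Salicylic acid is the hormone of defence against biotrophic microbes. Of 22 tested genes 14 rose and 1 fell, shares of 63.6% and 4.55% against 55.5% and 13.0% of all tested loci. After TMM scaling 10 rose and 3 fell. EDS5, which exports the precursor from the plastid, had 605, 493 and 804 at 32 °C, against 174 and 114 at 22 °C (log2 fold change 2.13 ± 0.24, adjusted p = 0.00013). FMO1, which makes N-hydroxypipecolic acid, had 38, 66 and 78 at 32 °C, against 5 and 1 at 22 °C (log2 fold change 4.09 ± 0.56, adjusted p = 0.00038), a low level throughout. UGT76B1, which conjugates salicylic acid and related immune signals to glucose, was 3.26-fold higher. PR1, the classical output gene, had 0, 35 and 1 at 32 °C, against 4 and 58 at 22 °C and was not called (adjusted p = 0.28). PR2, a glucanase, had 44, 1318 and 125 at 32 °C, against 51 and 25 at 22 °C; 32 °C replicate 2 stood far above the other 4 libraries, and, of the libraries left out in turn, only the omission of 32 °C replicate 1 gave a call (3.47, adjusted p = 0.019). For PR1 only the omission of 32 °C replicate 2 gave a call, as lower (-3.60, adjusted p = 0.028). PRB1, a basic relative of PR1, had 0, 1 and 0 at 32 °C, against 209 and 138 at 22 °C. It is not on the salicylic acid list, and whether its fall relates to that hormone was not tested.

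Genes of darkness and sugar starvation had the lowest median of the groups examined with all libraries in the fit. Without 22 °C replicate 2 that of the cold-regulated genes was lower, at -0.74 against -0.56. When sugar runs short, leaves are known to switch on genes that break down amino acids, store nitrogen as asparagine and import sugars. Of 19 tested genes 11 fell and 4 rose, and 13 and 1 did after TMM scaling; the median log2 fold change was -0.62. Without 22 °C replicate 2 the count of rises was 2. SEN1, a dark-induced gene and one of the most abundant transcripts at 22 °C, had 5137, 4941 and 3067 at 32 °C, against 63008 and 88852 at 22 °C (log2 fold change -4.13 ± 0.24, adjusted p = 6.9e-06). ASN1, the dark-induced asparagine synthetase, had 6644, 8678 and 6156 at 32 °C, against 70701 and 92329 at 22 °C (log2 fold change -3.51 ± 0.21, adjusted p = 7e-06). BCAT2, which starts the breakdown of branched-chain amino acids, had 347, 382 and 219 at 32 °C, against 6007 and 9064 at 22 °C (log2 fold change -4.58 ± 0.29, adjusted p = 8.4e-06). In all 3 genes the temperatures lay far apart, and 22 °C replicate 2 was the highest library. DIN10, a dark-inducible member of the raffinose synthase family, had 12144, 10511 and 8838 at 32 °C, against 42727 and 70072 at 22 °C (log2 fold change -2.39 ± 0.24, adjusted p = 8.3e-05). ERD5, the proline dehydrogenase that degrades proline, had 1924, 1624 and 2540 at 32 °C, against 17764 and 28814 at 22 °C (log2 fold change -3.50 ± 0.23, adjusted p = 1.1e-05), and STP1, a hexose importer of the plasma membrane, had 5479, 6257 and 5352 at 32 °C, against 45784 and 65352 at 22 °C (log2 fold change -3.27 ± 0.18, adjusted p = 5.2e-06). The gradient shoots were between the uniform regimes for these genes, with 6747 and 8530 for SEN1 and 15999 and 23707 for ASN1. ATG8E, an autophagy protein, had 1078, 1019 and 736 at 32 °C, against 2712 and 3564 at 22 °C (log2 fold change -1.74 ± 0.21, adjusted p = 0.0002), within an autophagy list in which 4 of 14 rose and 4 fell (2 and 7 after TMM scaling).

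Not every gene of that list fell. SAG13, a short-chain dehydrogenase linked to senescence and defence, had 236, 791 and 1327 at 32 °C, against 33 and 42 at 22 °C (log2 fold change 4.04 ± 0.61, adjusted p = 0.00065). Its 32 °C libraries spread widely, and without 32 °C replicate 1 the log2 fold change was 4.75.

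Several carbohydrate genes rose while most starvation genes fell, but other carbohydrate genes fell too. STP1 and ERD5, given above, belong to the starch and sugar transport list and to the raffinose and proline list. BAM4 (log2 fold change -1.89), BAM9 (-0.85), STP13 (-0.79) and STP4 (-0.73) of the starch and sugar transport list were also called lower. GPT2, which brings glucose phosphate into the plastid and responds to high sugar, had 558, 705 and 1671 at 32 °C, against 14 and 14 at 22 °C (log2 fold change 5.86 ± 0.40, adjusted p = 1.3e-05). BAM5, a sugar-induced beta-amylase of the phloem, had 3745, 4089 and 29686 at 32 °C, against 7 and 9 at 22 °C (log2 fold change 9.75 ± 0.80, adjusted p = 2.8e-05). For BAM5, 32 °C replicate 3 stood far above the other 32 °C libraries, and without it the log2 fold change was 8.77 (adjusted p = 2.9e-06). APL3, a sugar-induced subunit of the starch synthesis enzyme ADP-glucose pyrophosphorylase, had 635, 737 and 754 at 32 °C, against 194 and 159 at 22 °C (log2 fold change 2.00 ± 0.13, adjusted p = 9.7e-06). GOLS1, a galactinol synthase controlled by heat shock factors, had 9145, 9435 and 8927 at 32 °C, against 628 and 645 at 22 °C (log2 fold change 3.85 ± 0.07, adjusted p = 1.7e-07). P5CS1, the entry enzyme of proline synthesis, was 3.21-fold higher, opposite to ERD5. Of 10 raffinose and proline genes 4 rose and 3 fell (3 and 4 after TMM scaling). Across the whole list of 37 starch and sugar transport genes 22 rose and 5 fell, and after TMM scaling 13 rose and 12 fell. The shares as deposited, 59.5% and 13.5%, were near the 55.5% and 13.0% of all tested loci. After TMM scaling they were 35.1% and 32.4%, beside 32.4% and 30.3%, so the list did not lean to one side. Without 22 °C replicate 2 the falls as deposited numbered 3.

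**Figure D5:**
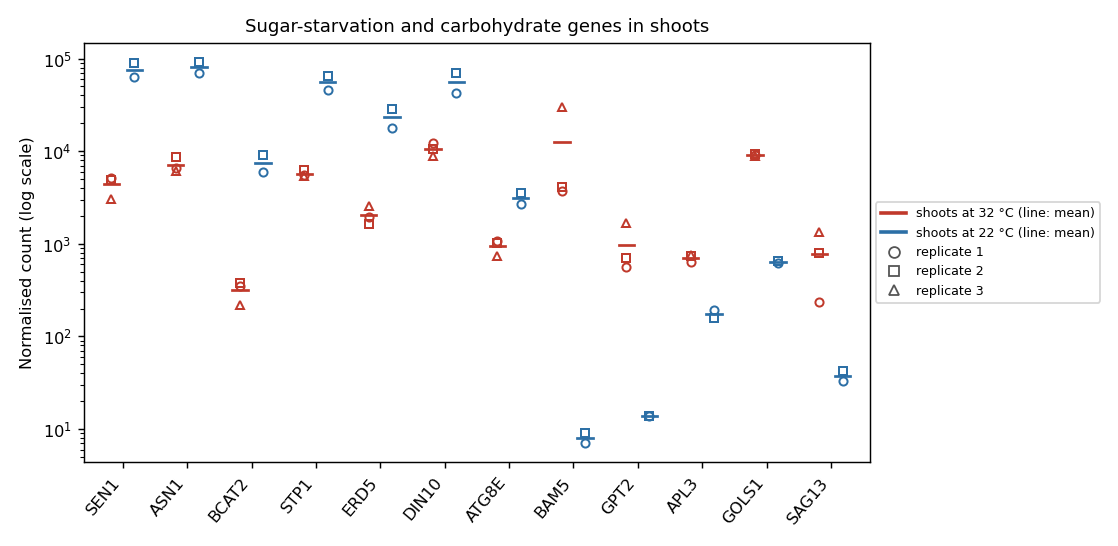
Normalised counts (log scale, y axis) of 12 sugar-starvation and carbohydrate genes in each shoot library, 32 °C in red on the left of each gene and 22 °C in blue on the right. Symbols are replicates and short lines are means; SEN1 to ATG8E lie lower at 32 °C and BAM5 to SAG13 lie higher, with no overlap in any of the 12.

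Nitrogen genes were divided. Of 22 tested, 11 rose and 3 fell, and 7 and 8 did after TMM scaling. NIR1, the plastid nitrite reductase, had 9634, 9273 and 8781 at 32 °C, against 3018 and 3519 at 22 °C (log2 fold change 1.501 ± 0.09, adjusted p = 6.6e-06), and NRT1.7, which loads nitrate from old leaves into the phloem, had 3169, 4138 and 5487 at 32 °C, against 987 and 1089 at 22 °C (log2 fold change 2.00 ± 0.20, adjusted p = 6.8e-05). NRT2.3, of the high-affinity nitrate transporter family, is not on this list. It was among the 12 largest falls, with 0, 1 and 1 at 32 °C, against 79 and 55 at 22 °C (adjusted p = 0.00011). AT2G26690, annotated as a major facilitator superfamily protein, was 2.75-fold higher.

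Iron genes included a rise of some deficiency regulators beside a fall of the main ferritin. BHLH38 and BHLH39 are transcription factors that respond to low iron and act with FIT. BHLH38 had 255, 150 and 129 at 32 °C, against 2 and 5 at 22 °C (log2 fold change 5.34 ± 0.46, adjusted p = 3.5e-05), and BHLH39 had 252, 128 and 113 at 32 °C, against 1 and 3 at 22 °C (log2 fold change 5.78 ± 0.53, adjusted p = 4.9e-05). Both were near 0 at 22 °C, and replicate 1 was the highest 32 °C library for each. NAS1, which makes the iron chelator nicotianamine, was 4.06-fold higher. FER1, the iron-storage ferritin of leaves, had 7891, 7658 and 8047 at 32 °C, against 19489 and 14916 at 22 °C (log2 fold change -1.12 ± 0.13, adjusted p = 0.00018), whereas FER2, a ferritin known from seeds, had 193, 259 and 281 at 32 °C, against 20 and 9 at 22 °C (log2 fold change 4.06 ± 0.32, adjusted p = 2.4e-05). Other members did not follow: FRO3 was called lower (-0.82), and PYE (0.06), NAS2 (-0.92) and the ferritins FER3 (0.18) and FER4 (0.08) were not called. Of 29 tested iron and copper genes 20 rose and 2 fell, and 11 and 5 did after TMM scaling. The shares as deposited were 69.0% and 6.9%, beside 55.5% and 13.0% of all tested loci. With TMM scaling they were 37.9% and 17.2%, beside 32.4% and 30.3%, so the size of the lean depends on the scaling.

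Genes of light and warmth signalling did not move as a group: of 37 tested 18 rose and 8 fell, and 13 and 14 did after TMM scaling. PIF4, the transcription factor at the centre of warmth-induced growth, had 5769, 5590 and 4692 at 32 °C, against 7667 and 8598 at 22 °C and was slightly lower (log2 fold change -0.61 ± 0.10, adjusted p = 0.0012). PHYA, the far-red light receptor, had 6377, 6340 and 6206 at 32 °C, against 15013 and 17002 at 22 °C (log2 fold change -1.34 ± 0.07, adjusted p = 4.8e-06). PAR1, a growth repressor of the shade response, had 384, 475 and 472 at 32 °C, against 1703 and 2234 at 22 °C (log2 fold change -2.14 ± 0.15, adjusted p = 1.2e-05). Both were lower in every 32 °C library, as was LZF1, a light-regulated zinc finger gene (-1.13 ± 0.08). UNE10, a member of the PIF family, had 1937, 1957 and 2073 at 32 °C, against 514 and 512 at 22 °C (log2 fold change 1.95 ± 0.07, adjusted p = 1.1e-06), and HB4, a shade-induced homeobox gene, was 3.2-fold higher. PORA, a protochlorophyllide reductase of dark-grown seedlings, was among the 12 largest falls, with 65, 56 and 72 at 32 °C, against 1227 and 962 at 22 °C (log2 fold change -4.06 ± 0.22, adjusted p = 5e-06).

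Of 40 tested auxin genes 20 rose and 8 fell, beside 55.5% and 13.0% of all tested loci, and 16 and 12 did after TMM scaling. Without 22 °C replicate 2 the falls as deposited numbered 4. YUC8 and YUC9 encode enzymes of auxin synthesis. YUC9 had 1353, 1210 and 1499 at 32 °C, against 362 and 262 at 22 °C (log2 fold change 2.13 ± 0.15, adjusted p = 1.3e-05). YUC8 had 759, 554 and 778 at 32 °C, against 541 and 382 at 22 °C (log2 fold change 0.60 ± 0.19, adjusted p = 0.025), a call that was lost after TMM scaling (0.14, adjusted p = 0.55) and without any of 3 libraries, lowest at 0.35 without 22 °C replicate 2. IAA29, an auxin-induced repressor that follows PIF4 in warm seedlings, had 1316, 1230 and 1150 at 32 °C, against 1801 and 1667 at 22 °C (log2 fold change -0.49 ± 0.08, adjusted p = 0.0013). GH3.5, which conjugates auxin to amino acids, had 3161, 2971 and 3051 at 32 °C, against 8179 and 8157 at 22 °C (log2 fold change -1.42 ± 0.10, adjusted p = 1.7e-05), and SAUR20, a small auxin-induced growth gene, had 745, 692 and 817 at 32 °C, against 355 and 369 at 22 °C (log2 fold change 1.05 ± 0.10, adjusted p = 4.8e-05). The gradient shoots had values above both uniform regimes for SAUR20, 1238 and 1297, and for IAA29, 2282 and 2118.

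Among genes of the other growth hormones, some rose and some fell. For gibberellin 9 of 21 genes rose and 4 fell, with 1 falling without 22 °C replicate 1 or 2 and 2 without 32 °C replicate 1 or 2. After TMM scaling 5 rose and 6 fell. The shares were 42.9% and 19.0%, beside 55.5% and 13.0% of all tested loci. With TMM scaling they were 23.8% and 28.6%, beside 32.4% and 30.3%. The 4 that fell were GA2OX1 (log2 fold change -1.26), RGL3 (-0.53), GAI (-0.52) and GID1C (-0.27). GA20OX1, an enzyme of gibberellin synthesis, had 318, 259 and 289 at 32 °C, against 96 and 101 at 22 °C (log2 fold change 1.54 ± 0.13, adjusted p = 3.6e-05); GASA4, a gibberellin-regulated peptide gene, was 2.81-fold higher, and the DELLA repressor RGL2 had 288, 377 and 285 at 32 °C, against 80 and 44 at 22 °C (log2 fold change 2.38 ± 0.25, adjusted p = 0.0001). Brassinosteroid genes numbered 5 higher and 4 lower of 16, and 4 and 11 after TMM scaling. CPD, a hydroxylase of brassinosteroid synthesis that is repressed by the hormone itself, had 7168, 6935 and 5812 at 32 °C, against 17253 and 18605 at 22 °C (log2 fold change -1.44 ± 0.10, adjusted p = 1.3e-05). BSU1, a phosphatase of the signalling chain, had 146, 115 and 107 at 32 °C, against 7 and 3 at 22 °C (log2 fold change 4.44 ± 0.32, adjusted p = 1.5e-05), and ROT3, another synthesis enzyme, was 2.85-fold higher.

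For ethylene 6 of 22 rose and 7 fell (4 and 10 after TMM scaling). The receptor gene ERS2 had 377, 384 and 370 at 32 °C, against 823 and 843 at 22 °C (log2 fold change -1.14 ± 0.09, adjusted p = 2.5e-05), and EBF2, an F-box protein that removes the transcription factor EIN3 and is induced by ethylene, was also lower (-1.32 ± 0.14). For cytokinin 13 of 25 rose and 1 fell (9 and 5 after TMM scaling). The share that rose, 52.0%, was near the 55.5% of all tested loci, and after TMM scaling it was 36.0% beside 32.4%. RR8 (locus AT2G41310), a response regulator of the cytokinin pathway, had 1527, 1460 and 1291 at 32 °C, against 425 and 386 at 22 °C (log2 fold change 1.81 ± 0.12, adjusted p = 1.3e-05). CKX3, which degrades the hormone, had 24, 26 and 28 at 32 °C, against 4 and 1 at 22 °C (log2 fold change 3.09 ± 0.43, adjusted p = 0.0004).

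Clock genes were mostly lower. Of 25 tested 13 fell and 7 rose, and 17 and 2 did after TMM scaling. The labels give no time of day for the harvest, so a difference in level and a difference in phase cannot be told apart. PRR5 and PRR9 are repressors that act in the day. PRR5 had 252, 276 and 309 at 32 °C, against 1391 and 1930 at 22 °C (log2 fold change -2.55 ± 0.17, adjusted p = 9.8e-06), and PRR9 had 232, 249 and 164 at 32 °C, against 809 and 783 at 22 °C (log2 fold change -1.91 ± 0.18, adjusted p = 5.9e-05). RVE1, a morning transcription factor that raises auxin synthesis, had 306, 284 and 196 at 32 °C, against 1327 and 1297 at 22 °C (log2 fold change -2.35 ± 0.26, adjusted p = 0.00012). In contrast, the morning gene LHY had 1505, 1428 and 1534 at 32 °C, against 1042 and 1048 at 22 °C (log2 fold change 0.51 ± 0.07, adjusted p = 0.0004), a rise that was gone after TMM scaling (0.05, adjusted p = 0.58). The evening gene TOC1 had 1616, 1615 and 1469 at 32 °C, against 1691 and 1515 at 22 °C and was not called (-0.03); after TMM scaling it was called lower (-0.49, adjusted p = 0.00054). GRP7, a clock-controlled RNA-binding protein, had 13029, 13070 and 11533 at 32 °C, against 13334 and 16040 at 22 °C, not called (adjusted p = 0.074), and was called lower after TMM scaling (-0.68) and without 22 °C replicate 1 (-0.36).

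Flowering genes gave opposite signs along one pathway. FT, the leaf-made flowering signal that warmth is known to induce, had 80, 94 and 108 at 32 °C, against 10 and 5 at 22 °C (log2 fold change 3.54 ± 0.30, adjusted p = 3.6e-05). SOC1, a flowering activator downstream of FT, had 413, 542 and 344 at 32 °C, against 1308 and 1431 at 22 °C (log2 fold change -1.68 ± 0.17, adjusted p = 8.8e-05). FLC, the repressor of both, had 245, 239 and 199 at 32 °C, against 92 and 71 at 22 °C (log2 fold change 1.48 ± 0.17, adjusted p = 0.00015). Its relatives MAF4 and MAF5 had 167, 141 and 110 at 32 °C, against 24 and 16 at 22 °C for MAF4 and 78, 91 and 97 at 32 °C, against 17 and 18 at 22 °C for MAF5. FT, FLC, MAF4 and MAF5 were higher in every 32 °C library, and SOC1 was lower in every one. The other members of the FLC family, FLM, MAF2 and MAF3, had log2 fold changes of -0.48, -0.41 and -0.50 and were not called (adjusted p = 0.14, 0.24 and 0.06). After TMM scaling all 3 were called lower (-0.93, -0.86 and -0.96). Over 23 tested flowering genes 8 rose and 5 fell (7 and 10 after TMM scaling).

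Of 21 tested cold-regulated genes 10 fell, beside 13.0% of all tested loci, and 1 rose. The gene that rose was COR15B (log2 fold change 1.34), and COR15A, at 1.36, was not called. COR47, KIN1 and KIN2 were not called either (-0.26, -0.02 and 0.05). After TMM scaling 12 fell and 0 rose. The count of falls was 6 and that of rises 5 without 22 °C replicate 1, the library with high rapid stress genes. COR413IM1, a chloroplast envelope protein of cold acclimation, had 1192, 1376 and 1272 at 32 °C, against 5338 and 5042 at 22 °C (log2 fold change -2.02 ± 0.09, adjusted p = 2.8e-06). AT4G37220, annotated in the same WCOR413 protein family, had 42, 48 and 23 at 32 °C, against 849 and 1162 at 22 °C (log2 fold change -4.75 ± 0.31, adjusted p = 1.1e-05). Both were lower in all 32 °C libraries, with replicates close together for COR413IM1. CBF1 and CBF2, the transcription factors at the head of the cold response, are also known to react rapidly to handling. CBF1 had 19, 9 and 40 at 32 °C, against 264 and 120 at 22 °C (log2 fold change -3.15 ± 0.61, adjusted p = 0.0024), and CBF2 had 99, 73 and 262 at 32 °C, against 1137 and 355 at 22 °C (log2 fold change -2.35 ± 0.65, adjusted p = 0.013); CBF2 was not called without 22 °C replicate 1 (-1.51, adjusted p = 0.1).

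Abscisic acid and dehydration genes gave 15 higher and 3 lower of 26, and 8 and 6 after TMM scaling. The shares, 57.7% and 11.5%, were near the 55.5% and 13.0% of all tested loci. After TMM scaling they were 30.8% and 23.1%, beside 32.4% and 30.3%. RD26, a stress and senescence transcription factor, had 294, 364 and 324 at 32 °C, against 1110 and 1088 at 22 °C (log2 fold change -1.75 ± 0.13, adjusted p = 1.9e-05). RD20, a caleosin of lipid droplets, had 555, 887 and 1169 at 32 °C, against 166 and 124 at 22 °C (log2 fold change 2.53 ± 0.28, adjusted p = 0.00014), and RAB18, a dehydrin, was 2.34-fold higher.

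Cell wall genes divided by enzyme. XTH31, whose product cuts and rejoins xyloglucan, had 4693, 4514 and 5443 at 32 °C, against 257 and 241 at 22 °C (log2 fold change 4.28 ± 0.11, adjusted p = 3.8e-07), and XTH32 of the same family was 5.37-fold higher. XTH15 went the other way, with 937, 646 and 875 at 32 °C, against 8973 and 10155 at 22 °C (log2 fold change -3.56 ± 0.19, adjusted p = 4.4e-06). EXPA4, an expansin that loosens walls, had 6900, 8491 and 6137 at 32 °C, against 1448 and 1084 at 22 °C (log2 fold change 2.504 ± 0.20, adjusted p = 2.3e-05). Over the 27 tested expansins and xyloglucan enzymes 16 rose and 7 fell, and 9 and 9 did after TMM scaling. The share that rose, 59.3%, was near the 55.5% of all tested loci, and after TMM scaling it was 33.3% beside 32.4%.

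Lignin and secondary wall genes rose more evenly, 20 of 23 with 0 lower (14 and 2 after TMM scaling). PAL1, the entry enzyme of phenylpropanoid synthesis, had 4099, 5355 and 6045 at 32 °C, against 1400 and 1407 at 22 °C (log2 fold change 1.86 ± 0.16, adjusted p = 3.2e-05). CAD5, which makes lignin alcohols, had 3369, 3798 and 4293 at 32 °C, against 863 and 673 at 22 °C (log2 fold change 2.32 ± 0.13, adjusted p = 5.7e-06). LAC4, a laccase that joins them in the wall, and CESA7, a cellulose synthase of secondary walls, were 4.71-fold and 3.66-fold higher. CESA3, a cellulose synthase of primary walls, had 21176, 19719 and 21704 at 32 °C, against 18240 and 20848 at 22 °C; it was not called, and after TMM scaling it was called lower (-0.36, adjusted p = 0.018).

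Lipid genes of the leaf surface and of membranes were also examined. CER1, needed to make the alkanes of leaf wax, had 3969, 6038 and 5416 at 32 °C, against 703 and 477 at 22 °C (log2 fold change 3.13 ± 0.20, adjusted p = 1e-05). LACS2, an acyl-CoA synthetase of cutin synthesis, was 2.84-fold higher. Of 26 cuticle genes 14 rose and 2 fell (11 and 4 after TMM scaling). The share that rose, 53.8%, was near the 55.5% of all tested loci, and after TMM scaling it was 42.3% beside 32.4%. LTP4, a secreted lipid transfer protein, was among the 12 largest rises, with 1096, 3505 and 3610 at 32 °C, against 6 and 4 at 22 °C. Desaturases add double bonds to membrane lipids, and plants are known to have fewer double bonds in the warm. Of 12 desaturation genes 8 rose and 3 fell (5 and 4 after TMM scaling). FAD8, a plastid desaturase whose protein is known to be unstable in the warm, had 540, 766 and 643 at 32 °C, against 302 and 299 at 22 °C and was higher (log2 fold change 1.095 ± 0.17, adjusted p = 0.00065). FAD7, its closely similar partner, had 8407, 9722 and 10733 at 32 °C, against 4515 and 4872 at 22 °C (log2 fold change 1.03 ± 0.10, adjusted p = 8.3e-05), and reads may be shared between them. FAD4, which acts on phosphatidylglycerol, was 4.36-fold higher. FAD2, the desaturase of the endoplasmic reticulum, had 51956, 54667 and 58556 at 32 °C, against 44547 and 38489 at 22 °C (log2 fold change 0.41 ± 0.10, adjusted p = 0.0062), a call that was lost after TMM scaling (-0.05) and without 22 °C replicate 2 (0.30, adjusted p = 0.051).

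Aquaporins, the water channels of the plasma and vacuolar membranes, leaned lower: 9 of 19 fell and 6 rose, and 11 and 3 did after TMM scaling. Vacuolar channels went both ways. TIP1;1 (log2 fold change 0.45) and TIP2;2 (0.38) were called higher, both below the median of 0.49 of all tested loci, and the abundant TIP1;2 and TIP2;1 were lower. TIP1;2 had 79139, 66865 and 78064 at 32 °C, against 205923 and 212912 at 22 °C (log2 fold change -1.49 ± 0.10, adjusted p = 1.3e-05), and TIP2;1 had 43462, 38643 and 41331 at 32 °C, against 123560 and 126015 at 22 °C (log2 fold change -1.60 ± 0.09, adjusted p = 6.1e-06). PIP1;3 of the plasma membrane had 16974, 17848 and 15424 at 32 °C, against 36664 and 35079 at 22 °C (log2 fold change -1.101 ± 0.08, adjusted p = 1.7e-05). No 32 °C library reached a 22 °C library for TIP1;2, TIP2;1 or PIP1;3.

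Photorespiration recycles the by-product that Rubisco makes with oxygen and is known to run faster in the warm. Its 16 tested genes were not moved together, with 6 higher and 3 lower (3 and 10 after TMM scaling). GLDP1, a glycine decarboxylase subunit of mitochondria, had 59698, 58183 and 67764 at 32 °C, against 19950 and 20249 at 22 °C (log2 fold change 1.62 ± 0.10, adjusted p = 7.1e-06). AGT, a peroxisomal aminotransferase of the same cycle, had 27036, 28692 and 27370 at 32 °C, against 71666 and 83789 at 22 °C (log2 fold change -1.48 ± 0.09, adjusted p = 7.8e-06).

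Cell division and chromatin genes gave a mixed picture. Of 31 tested cell cycle genes 23 rose and 1 fell, against 12 and 5 after TMM scaling, and 15 rose without 22 °C replicate 2. The shares as deposited were 74.2% and 3.23%, beside 55.5% and 13.0% of all tested loci. With TMM scaling they were 38.7% and 16.1%, beside 32.4% and 30.3%. MCM3, a subunit of the helicase of DNA replication, had 680, 759 and 646 at 32 °C, against 220 and 259 at 22 °C (log2 fold change 1.53 ± 0.12, adjusted p = 2.6e-05), and CYCD2;1, a cyclin of the entry into division, was 2.8-fold higher. CYCB1;1, a mitotic cyclin, had 130, 120 and 121 at 32 °C, against 112 and 103 at 22 °C and was not called (adjusted p = 0.32); its sign turned after TMM scaling (-0.25). Of 41 tested loci whose RefSeq product names a histone or the histone superfamily 19 fell and 7 rose (26 and 4 after TMM scaling). HTA9, an H2A.Z histone variant known for its eviction in the warm, had 2466, 2855 and 2496 at 32 °C, against 5766 and 5527 at 22 °C (log2 fold change -1.12 ± 0.08, adjusted p = 1.9e-05). Of 13 tested tubulin chain genes, between which reads may be shared, 9 fell and 2 rose (11 and 0 after TMM scaling). ROS1, the DNA demethylase whose own transcript follows the methylation state, had 403, 591 and 377 at 32 °C, against 2027 and 2436 at 22 °C (log2 fold change -2.31 ± 0.20, adjusted p = 3.3e-05), and DDM1, a remodeller needed for DNA methylation, was 2.3-fold higher. Of 15 chromatin genes 7 rose and 5 fell (3 and 6 after TMM scaling).

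Stomatal lineage and leaf growth genes, pooled in 1 list, moved both ways, 7 higher and 7 lower of 24 (5 and 10 after TMM scaling). GRF5, a growth-regulating factor of leaf primordia, had 85, 130 and 122 at 32 °C, against 566 and 504 at 22 °C (log2 fold change -2.26 ± 0.20, adjusted p = 4e-05), and GRF3 of the same family had 1027, 1146 and 1059 at 32 °C, against 2608 and 2872 at 22 °C (log2 fold change -1.35 ± 0.08, adjusted p = 8.1e-06). ERL1, a receptor kinase of stomatal patterning, had 316, 378 and 376 at 32 °C, against 113 and 103 at 22 °C (log2 fold change 1.71 ± 0.13, adjusted p = 2.2e-05). Among splicing and RNA-binding factors 4 of 16 rose and 5 fell (4 and 10 after TMM scaling, and 7 rising without 32 °C replicate 3), and RS40, a serine/arginine-rich splicing factor, had 2172, 2066 and 1697 at 32 °C, against 3616 and 4171 at 22 °C (log2 fold change -0.98 ± 0.12, adjusted p = 0.00017).

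Beyond these groups, the rule that took the 12 largest non-overlapping rises and falls named several loci with little or no known function. The deepest fall was AT3G16670, annotated in the pollen Ole e 1 allergen and extensin family, with 5, 15 and 5 at 32 °C, against 6039 and 3837 at 22 °C (log2 fold change -9.18 ± 0.51, adjusted p = 5.6e-06). AT3G62950, a thioredoxin superfamily protein, had 18, 15 and 9 at 32 °C, against 655 and 1034 at 22 °C (log2 fold change -5.83 ± 0.45, adjusted p = 2.2e-05), and AT5G03615, a locus with no protein product in RefSeq, had 16, 34 and 6 at 32 °C, against 447 and 925 at 22 °C. Falls also came in annotated neighbours. AT3G05727 and AT3G05730, on chromosome 3 with 1 annotated gene between them and annotated as an SLR1-binding pollen coat protein and a defensin-like protein, had 213, 279 and 217 at 32 °C, against 7831 and 6662 at 22 °C for AT3G05727 and 312, 447 and 273 at 32 °C, against 5556 and 4151 at 22 °C for AT3G05730. AT4G22513 and AT4G22517, adjacent on chromosome 4 and both annotated in the lipid-transfer protein and inhibitor family, had 24, 45 and 54 at 32 °C, against 369 and 295 at 22 °C for AT4G22513 and 409, 508 and 496 at 32 °C, against 5430 and 5179 at 22 °C for AT4G22517. Sequence likeness within such pairs could let reads be shared, which was not tested.

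Among the rises, NUDT24, a nudix hydrolase, had 1576, 2187 and 1699 at 32 °C, against 3 and 1 at 22 °C (log2 fold change 9.32 ± 0.30, adjusted p = 7.4e-07), and the gradient shoots had 162 and 124. AT4G19430, an uncharacterised protein, had 1303, 1654 and 1797 at 32 °C, against 0 and 5 at 22 °C; AT1G72660, annotated as a P-loop nucleoside triphosphatase, had 1943, 1741 and 1417 at 32 °C, against 8 and 2 at 22 °C (log2 fold change 8.34 ± 0.40, adjusted p = 3e-06); and ATHSP22.0, a small heat shock protein, had 3173, 3138 and 2708 at 32 °C, against 0 and 2 at 22 °C. Where a 22 °C value was 0 to 9 the log2 fold change depends on the added 1, and the values themselves are the better guide.

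Over both organs 23070 loci were tested for a shoot change that differed from the root change under the same 2 temperatures, and 6262 were called (27.1%), 4541 with the larger value in shoots and 1721 with the smaller. The root side rests on 3 libraries at 32 °C and 1 at 22 °C. That lone library is assumed to vary like the libraries of the other groups, and the test could not be repeated without it. Organ differences were looked at in 20 genes fixed by name. Among them, the shoot minus root difference in log2 fold change was 6.76 ± 1.23, adjusted p = 0.0019 for BAM5 and 4.66 ± 0.97, adjusted p = 0.0042 for GPT2, both larger in shoots, and -3.10 ± 0.75, adjusted p = 0.0099 for ASN1, whose fall was larger in shoots. For PIF4 the difference was 3.26 ± 0.81, adjusted p = 0.011, with a log2 fold change of -0.61 in shoots and -3.87 in roots. FT had log2 fold changes of 3.54 in shoots and 3.70 in roots, and their difference was not called (-0.16 ± 0.80, adjusted p = 0.9).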

How the data were processed

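Poly(A) RNA of 16 seedling samples was sequenced. The authors deposited 1 table of whole-number normalised counts, used here as a score because the normalisation is not stated and read totals cannot be recovered; column totals lie between 33075029 and 34500315 in the shoots of the main comparison, and the depth is unknown. STAR 2.5.3a, HISAT2 and DESeq2 are listed in the submitters' processing notes, which do not say what each was used for. No source used here gives the genome build, annotation or strand setting, so antisense and overlapping genes cannot be told apart, and no coordinates or sequences are printed. Gene names and products came from RefSeq (TAIR10.1), to which 32548 of 32833 loci matched by code; the other 285 are organellar.

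Values were analysed as log2(value + 1) with limma 3.58.1 in R 4.3.3 (Python 3.11.15 for tables), with a mean for each regime, a trend in the variance, and all 7 distinct shoot libraries in the fit (4 residual degrees of freedom), over loci with a value of 10 or more in at least 2 shoot columns. In this filter, and in that of the organ comparison, identical columns counted separately. The organ comparison was an interaction term over all 14 distinct libraries. The 37 lists hold 838 loci, of which 816 were tested; 798 of the list symbols are RefSeq symbols or synonyms. Lists, members and the rule for named genes were chosen with earlier results of these data known. The rule takes the 12 largest non-overlapping called rises and falls with a mean of at least 50, up to 5 called and 3 uncalled genes of each list, and 20 genes fixed by name; 18 of the loci printed lie outside it and were chosen after their values were seen: ATMG00160, ATMG00640, NDB4, SDI1, LSU1, CYP79F1, MYB28, TGG2, WRKY40, ZAT10, PR2, SAG13, LAC4, CESA7, MAF3, AT3G05730, AT4G22513 and AT4G22517. The same holds for the mitochondrial, plastid, chromosome 2, pentatricopeptide, histone and tubulin groups, which were drawn from the tested loci. Members given only a log2 fold change for the nitrogen, ethylene, gibberellin, sugar transport and aquaporin lists were also picked with their values seen. They are not among the 18. Alternatives changed the pseudocount (0.5 and 8), the filter, the scaling (TMM or equal totals), the libraries in the fit, the weights, the minimum fold change (2) and the replicate block.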

Additional observations from a re-analysis of the deposited data

Results flagged for a closer look

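Of the 20 genes fixed by name, 11 had a 32 °C over 22 °C change that differed between shoots and roots by the interaction test; values are the shoot minus root difference in log2 fold change, and the root side has 1 distinct library at 22 °C. The difference was 6.76 ± 1.23, adjusted p = 0.0019 for BAM5, 4.66 ± 0.97, adjusted p = 0.0042 for GPT2, 3.26 ± 0.81, adjusted p = 0.011 for PIF4 and 2.44 ± 0.20, adjusted p = 1.2e-05 for LHY. LHY was higher in the 32 °C shoots (0.51) and had a root log2 fold change of -1.94. For VSP2 it was 2.44 ± 0.52, adjusted p = 0.0048, and for FAD8 it was 0.94 ± 0.27, adjusted p = 0.024. Smaller values in shoots were found for ASN1 (-3.10 ± 0.75, adjusted p = 0.0099), XTH22 (-2.14 ± 0.69, adjusted p = 0.038), IAA29 (-1.43 ± 0.39, adjusted p = 0.018), FLC (-1.34 ± 0.35, adjusted p = 0.015) and GRP7 (-1.04 ± 0.29, adjusted p = 0.018). IAA29, XTH22 and GRP7 had negative log2 fold changes in shoots (-0.49, -1.42 and -0.22) and positive ones in roots (0.94, 0.72 and 0.82). FLC had positive log2 fold changes in both organs, 1.48 in shoots and 2.81 in roots. With 1 library left out, the call was lost for GRP7 without 22 °C shoot replicate 2 (-0.91, adjusted p = 0.070), for IAA29 without 22 °C shoot replicate 1 (-1.37, adjusted p = 0.051), for FAD8 without either 22 °C shoot library (adjusted p 0.052 and 0.062), and for XTH22 without any of 6 libraries (adjusted p 0.057 to 0.094); the other 7 genes kept it. At a minimum fold change of 2, BAM5, GPT2 and LHY kept the call and the other 8 genes lost it, with adjusted p of 0.13 for PIF4, ASN1 and VSP2, 0.55 for XTH22, 0.95 for IAA29 and 1.0 for FLC, FAD8 and GRP7. XTH22 also lost it with no filter on low values (adjusted p = 0.066).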

How the results depend on the processing

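The fit called 12141 loci higher and 2852 lower in the 32 °C shoots. With a minimum fold change of 2 it called 3455 (3130 higher, 325 lower), and TMM scaling gave 7095 higher and 6627 lower; with 1 library left out, 10175 to 12499 were higher and 2237 to 2779 lower. For the shoot minus root change, 930 were called at a minimum fold of 2 (790 larger in shoots, 140 smaller) and 11973 with library weights (8074 and 3899), and leaving out 1 library gave 1123 to 1659 smaller in shoots. The other alternatives kept both totals within 1.5 times. Of 138 named genes called, 133 kept the call whichever library was left out. Same-numbered 32 °C and 22 °C shoots had correlations of deviations of -0.18 and 0.02. The deviations of 2 libraries at 22 °C mirror each other, so these values cannot settle whether the numbers pair the libraries. With the replicate block 12512 loci were higher and 2836 lower, and with the identical gradient columns numbered 3 the counts were 11431 and 2463.

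Signs turned for genes near no change, where the cause was not tested. After TMM scaling the log2 fold change was -0.32 for ZAT10, -0.36 for CESA3, -0.046 for FAD2, -0.25 for CYCB1;1 and -0.40 for CASP1. ZAT10 was -0.30 with the replicate block, -0.13 with the other numbering and -0.17 with library weights, and TOC1 was 0.013 with the block. With 1 library left out WRKY40 ranged from -0.88 to 1.85, ZAT10 from -1.20 to 1.47, TOC1 from -0.11 to 0.047 and CASP1 from -0.25 to 0.36. The shoot minus root difference of FT was 0.83 with a pseudocount of 8, 0.046 with the other numbering in the block, and -0.598 to 0.34 with 1 library left out. It was -0.0044 for FAD2 and -0.028 for FER1 after TMM scaling, and with 1 library left out -0.00022 to 0.21 for FAD2, -0.34 to 0.17 for YUC8 and -0.11 to 0.27 for FER1.

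Unknown depth, 2 libraries at 22 °C and 1 distinct 22 °C root library limit precision.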
